A study of Mus musculus with 6 samples.

Results

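The aminoacyl-tRNA synthetase genes were taken from the deposited expression table as the protein-coding genes whose description contains the words tRNA synthetase, and 42 of the 54532 listed genes met this rule. They comprise 19 genes of cytosolic enzymes, 17 genes of mitochondrial enzymes, 2 genes (Gars and Kars) that each provide the enzyme of both compartments, and 4 genes whose products are not synthetases themselves (Aimp1, Aimp2, Prorsd1 and Aarsd1). The study sequenced RNA of MC3T3-E1 cells, a mouse pre-osteoblast line, kept in osteogenic medium alone (control, n = 3) or in the same medium with metformin, a biguanide used against high blood glucose (n = 3). Per the study's methods, both groups were induced for 3 days, metformin was used at 0.2 mM, the medium held β-glycerophosphate, ascorbic acid and dexamethasone, and the 3 samples of a group were biological replicates. All samples come from 1 cell line. Expression is given as FPKM, reads divided by the gene length and by an effective library size. In bulk RNA, fewer cells of a kind and less RNA per cell cannot be told apart.

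Most aminoacyl-tRNA synthetases join 1 amino acid to its matching tRNAs, and the charged tRNA then carries the amino acid to the ribosome. Cytosolic and mitochondrial protein synthesis use separate sets of these enzymes, nearly all encoded by different nuclear genes, with the names of the mitochondrial enzymes ending in 2. In the cytosol, several synthetases are held together with the scaffold proteins Aimp1, Aimp2 and Eef1e1 in the multi-tRNA synthetase complex. Many genes of cytosolic synthetases are known targets of ATF4, the transcription factor of the amino acid response.

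Reads recovered from the table numbered 18399861 to 22111790 per sample, which for the tested members gave between 65 reads for Pars2 and 8288 reads for Aars in a sample. The controls differed in how their levels followed transcript GC content. For each control, the deviation from the mean of the other controls was correlated with GC content across all tested genes. These genes are not independent replicates. Spearman's rho was -0.668 for control replicate 1, 0.411 for control replicate 2 and 0.635 for control replicate 3. Because 1 deviating control shifts the reference of the others, rho alone does not single out 1 control. Among the members, the GC-rich genes Vars, Aars2 and Sars2 (GC content 60.9%, 59.99% and 60.1%) had 0.688, 0.671 and 0.462 times the mean FPKM of the other controls in control replicate 1. The AT-rich genes Dars and Prorsd1 (GC content 41.2% and 39.3%) had 1.46 and 1.43 times that mean. Other members did not follow GC content in this way: Aimp1 and Mars2 (37.5% and 38.8%) had 1.10 and 0.930 times the mean of the other controls, and Kars (47.3%) had 0.658 times. The counts of called members are therefore given with and without control replicate 1. Of the defining osteoblast markers, Col1a1 (927 to 2576 FPKM) and Runx2 (25.8 to 34.1 FPKM) were present in every sample, and the muscle markers Myod1 and Myog had no read in any. Of the 9 osteoblast markers, Col1a1 and Col1a2 were higher with metformin (log2 fold changes 0.93 and 0.57), Ibsp and Spp1 lower (-1.599 and -1.50), and 5 were not called. The metformin samples lay entirely above the controls in 3 of the 9 and entirely below in 3, beside 23.6% and 20.5% of all tested genes. The summed level of the 9 was 10016 to 11772 FPKM in the controls and 6800 to 7194 FPKM with metformin. The most abundant genes weigh most in this sum, so it does not give a common direction of the markers. Of 3 macrophage markers, Ptprc and Adgre1 stayed at or below 0.0156 FPKM, and Cd68 was lower with metformin (-0.49, adjusted p = 0.0102 by limma-trend). The summed endothelial and adipocyte markers were at most 0.121 and 0.131 FPKM, and the chondrocyte markers 6.44 to 11.9 FPKM in the controls and 8.35 to 9.71 FPKM with metformin, nearly all from Col2a1. Leaving out metformin replicate 1 ended the calls of Cd68, Col1a1 and Col1a2, leaving out replicate 2 those of Col1a1 and Col1a2, and leaving out replicate 3 that of Col1a1 (adjusted p = 0.0525 to 0.0942). The part of these shifts in the results below was not tested.

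With metformin, the genes of cytosolic synthetases had mostly positive and those of mitochondrial synthetases mostly negative log2 fold changes. Of the 41 members with a mean of at least 0.5 FPKM, 5 were higher with metformin and 2 were lower at an adjusted p-value under 0.05 (limma-trend on log2(FPKM + 1), Benjamini-Hochberg adjustment over all 12681 tested genes). Across all tested genes, 13.2% were called higher and 9.28% lower by the same rule, so the members were not called more often than all genes in either direction. Of the 19 cytosolic enzymes, Tarsl2, Vars, Iars and Cars were higher and none was lower, 17 had a positive log2 fold change, and the median was 0.16. At an unadjusted p-value under 0.05, which 35.8% of all tested genes passed in either direction, the cytosolic enzymes were the same 4 and Hars, all higher. Of the 17 mitochondrial enzymes, Hars2 and Tars2 were lower and none was higher, 13 had a negative log2 fold change, and the median was -0.13. The unadjusted threshold added Ears2 and Nars2, both lower, so that neither class passed it more often than all genes did with both directions counted. Within each class those that passed had the same sign, and the share of all genes in a single direction was not taken. With voom on the recovered reads, 4 cytosolic enzymes were higher and none lower, and 2 mitochondrial enzymes were lower and none higher, beside 14.0% of all tested genes called higher and 9.75% lower. The median over all tested genes was 0.0053, and 50.7% of them had a positive log2 fold change. Gars, of both compartments, was also higher. Aarsd1, with 6 to 21 reads per sample, was under the limit and was not tested. It shares 1254 bases of transcript with Gm27029 at 99.92% identity. The added 1 FPKM makes the fold changes of weakly expressed genes too small.

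**Figure D1:**
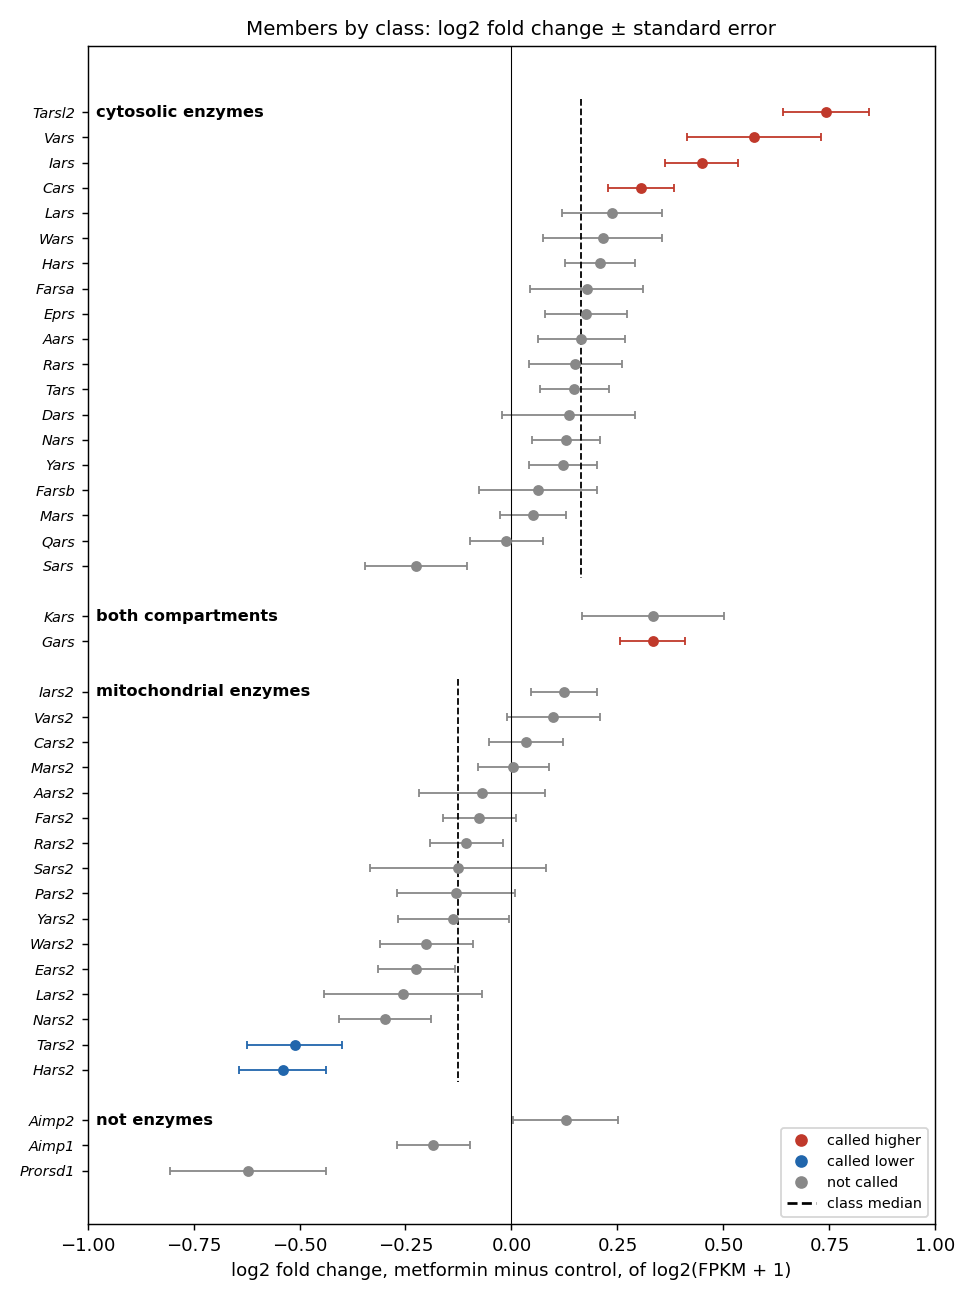
Log2 fold change (x axis, metformin minus control, of log2(FPKM + 1)) with its standard error for 40 of the 41 tested members, grouped by class, with dashed lines at the medians of the cytosolic (0.16) and mitochondrial (-0.13) enzymes. Of the 19 cytosolic enzymes 17 lie right of 0 and most mitochondrial enzymes lie left of it, while the colours mark the 5 members called higher and the 2 called lower.

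In most members the ranges of the groups overlapped. The 3 metformin samples lay entirely above the 3 controls for 8 of the 19 cytosolic enzymes (Cars, Hars, Iars, Nars, Tars, Tarsl2, Vars and Yars), for both Gars and Kars, and for 1 mitochondrial enzyme (Iars2). Over all tested genes this was the case for 23.6%. They lay entirely below the controls for 4 of the 17 mitochondrial enzymes (Ears2, Hars2, Nars2 and Tars2), for Aimp1 and for Prorsd1, and for no cytosolic enzyme, where 20.5% of all tested genes did so. The mitochondrial share below was thus near that of all genes. Summed over the 19 cytosolic enzymes, the level was 407 to 421 FPKM in the controls and 449 to 479 FPKM with metformin. Summed over the 17 mitochondrial enzymes, it was 67.0 to 73.4 FPKM in the controls and 61.5 to 63.0 FPKM with metformin. In neither sum did the groups overlap, and no test was made of a sum over chosen genes.

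Gars, the glycyl-tRNA synthetase of cytosol and mitochondria (chromosome 6, 55038007 to 55079500, plus strand, in the coordinates of the table), was the member with the highest level. Its controls had 81.6, 80.4 and 82.6 FPKM and its metformin samples 105, 102 and 102 FPKM. The 2 groups were each within a narrow range and well apart. The rise from 81.5 ± 1.10 to 103 ± 2.03 FPKM (SD, n = 3 each) was 0.33 on the log2 scale (standard error 0.08, limma-trend adjusted p = 0.0242).

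Iars, the cytosolic isoleucine enzyme and a part of the multi-tRNA synthetase complex (chromosome 13, 49682100 to 49734267, plus strand), had 19.3, 17.7 and 17.4 FPKM in the controls and 25.6, 26.04 and 23.7 FPKM with metformin. Every metformin sample was above every control, and the difference was 0.45 on the log2 scale (standard error 0.09, adjusted p = 0.0115). Gm4849, 96.0% identical to it over 1656 bases, had a mean of 0.0122 FPKM. Vars, the cytosolic valine enzyme (chromosome 17, 35000987 to 35016322, plus strand), had 20.4, 28.2 and 31.2 FPKM in the controls and 39.7, 41.3 and 37.4 FPKM with metformin. Its first control was far below the others, and the groups did not overlap with or without that sample. The log2 fold change was 0.57 (standard error 0.16, adjusted p = 0.0435) and, without control replicate 1, it was 0.40 (adjusted p = 0.00532). Cars, the cytosolic cysteine enzyme (chromosome 7, 143557230 to 143600090, minus strand), had 8.22, 7.91 and 8.58 FPKM in the controls and 10.3, 10.9 and 10.005 FPKM with metformin. Its log2 fold change was 0.31, with a standard error of 0.08 and an adjusted p of 0.0328, again without overlap of the groups.

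Tarsl2, another gene of a threonyl-tRNA synthetase beside Tars (chromosome 7, 65644898 to 65692091, plus strand), had the largest log2 fold change of all members. Its controls had 1.57, 1.12 and 1.28 FPKM and its metformin samples 3.02, 2.88 and 2.73 FPKM. The mean of the metformin samples was 2.17 times that of the controls, and the log2 fold change was 0.74 (standard error 0.10, adjusted p = 0.00323). Tars itself, at a level of 17.1 to 20.3 FPKM, was not called (log2 fold change 0.15, adjusted p = 0.239), with 19.0, 17.1 and 17.4 FPKM in the controls and 20.3, 19.98 and 19.3 FPKM with metformin. Tarsl2 was thus the much weaker of these genes in level, and the difference between their fold changes was not tested. Over 923 bases Tarsl2 overlaps Tm2d3 on the same strand, a gene with a mean of 15.0 FPKM, so reads of the shared stretch could be assigned to either.

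**Figure D2:**
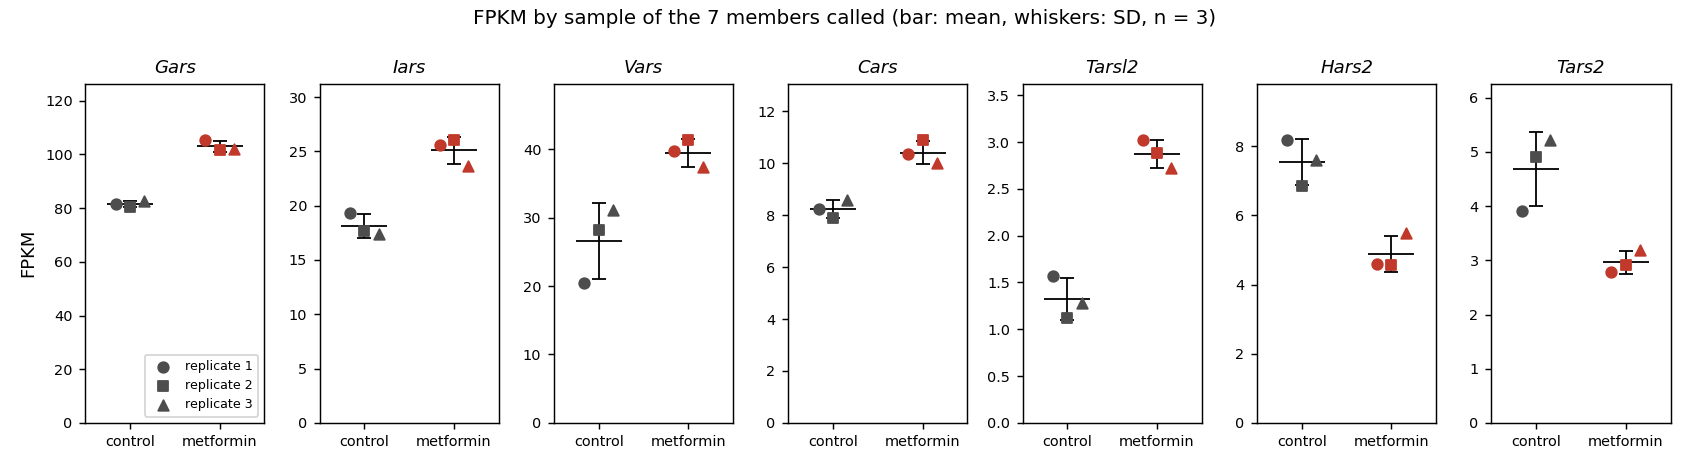
FPKM of the 7 called members in each of the 6 samples (y axis from 0, a panel for each gene), with the mean and SD of each group of 3 as bar and whiskers. In every panel the metformin samples lie entirely on the same side of the controls, above them for Gars, Iars, Vars, Cars and Tarsl2 and below them for Hars2 and Tars2, and the first control of Vars (20.4 FPKM) is the point farthest from its group.

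Promoter windows, 250 bases before to 50 bases after the RefSeq start site, were searched on both strands for the core of the element that ATF4 binds together with C/EBP proteins, TGATGNAA, which reads TTNCATCA on the other strand. Windows of 32 of the 42 members were searched, and 10 members were not searched, among them the called members Cars, Vars and Hars2. The members not searched include all those on the chromosome of Hars2 (Hars, Hars2, Lars and Nars). The counts of members below therefore leave that chromosome out. Of 12 cytosolic enzymes searched, Aars, Iars, Tars and Yars held the element, as did Gars of the 2 genes of both compartments. None of 14 mitochondrial enzymes searched and none of the 4 members that are not enzymes held it. Of all 27025 genes in the promoter table, with no chromosome left out, 4.51% held it in at least 1 window. The windows of the 5 members with the element are shown, with Tars2 as a mitochondrial counterpart without it, since they set the enzymes of the compartments beside each other at the sequence level. The element is in capitals, sequences run 5′ to 3′ along the gene and come from RefSeq (GRCm38.p6). The windows are chr6:55037751-55038050 for Gars (plus strand), chr13:49681880-49682179 for Iars (plus strand), chr8:111033592-111033891 for Aars (plus strand), chr15:11399609-11399908 for Tars (minus strand), chr4:129189653-129189952 for Yars (plus strand) and chr3:95754928-95755227 for Tars2 (minus strand). The windows of Tars2 and Aars lie inside the deposited spans of these genes (95739976 to 95760206 and 111033144 to 111057664). The outer 5′ ends of these spans were not searched.
Gars: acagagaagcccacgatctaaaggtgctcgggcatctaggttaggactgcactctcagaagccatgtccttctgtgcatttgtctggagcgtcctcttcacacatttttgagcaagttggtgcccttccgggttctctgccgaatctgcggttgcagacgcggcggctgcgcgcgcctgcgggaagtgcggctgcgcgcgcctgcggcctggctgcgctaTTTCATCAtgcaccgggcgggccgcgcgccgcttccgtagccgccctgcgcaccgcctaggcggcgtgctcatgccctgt
Iars: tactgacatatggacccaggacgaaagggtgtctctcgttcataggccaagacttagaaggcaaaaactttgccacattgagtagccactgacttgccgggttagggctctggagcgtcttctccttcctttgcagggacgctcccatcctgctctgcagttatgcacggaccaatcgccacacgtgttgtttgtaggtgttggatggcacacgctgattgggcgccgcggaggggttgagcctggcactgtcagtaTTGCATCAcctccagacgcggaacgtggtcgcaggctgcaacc
Aars: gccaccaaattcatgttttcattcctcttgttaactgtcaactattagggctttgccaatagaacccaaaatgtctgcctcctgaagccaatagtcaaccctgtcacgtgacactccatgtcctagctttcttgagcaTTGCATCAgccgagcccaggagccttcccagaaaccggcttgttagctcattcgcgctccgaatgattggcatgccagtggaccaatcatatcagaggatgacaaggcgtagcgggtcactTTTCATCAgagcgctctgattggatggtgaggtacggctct
Tars: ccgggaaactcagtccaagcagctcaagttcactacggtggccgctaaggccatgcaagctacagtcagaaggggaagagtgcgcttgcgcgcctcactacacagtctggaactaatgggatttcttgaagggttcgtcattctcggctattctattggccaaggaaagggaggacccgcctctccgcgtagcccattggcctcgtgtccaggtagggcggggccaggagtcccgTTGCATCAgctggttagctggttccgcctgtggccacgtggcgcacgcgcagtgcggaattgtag
Yars: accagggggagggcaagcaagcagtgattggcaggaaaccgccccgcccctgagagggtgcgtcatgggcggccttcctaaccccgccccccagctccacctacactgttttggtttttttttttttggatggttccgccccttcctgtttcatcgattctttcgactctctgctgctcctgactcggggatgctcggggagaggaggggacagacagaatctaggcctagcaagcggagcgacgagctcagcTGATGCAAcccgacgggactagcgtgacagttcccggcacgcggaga
Tars2: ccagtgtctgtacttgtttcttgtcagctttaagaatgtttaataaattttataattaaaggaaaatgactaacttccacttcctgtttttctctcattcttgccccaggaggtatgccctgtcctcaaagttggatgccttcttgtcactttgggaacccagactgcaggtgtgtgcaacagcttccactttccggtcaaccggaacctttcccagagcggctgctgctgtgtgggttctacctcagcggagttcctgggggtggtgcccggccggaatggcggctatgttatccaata

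The element began 30 bases before the start site in Gars, 15 before it in Tars, and 7 and 3 bases after it in Iars and Yars. Aars held it at 2 places, 112 bases before and 9 bases after its start site. The forms TTGCATCA (Aars, Iars, Tars) and TGATGCAA (Yars) are the same sequence read from opposite strands, and Gars and the second place in Aars hold TTTCATCA. Gars and Iars were called higher, whereas Aars, Tars and Yars, with log2 fold changes of 0.16, 0.15 and 0.12, were not called. Tarsl2, which was also called higher, had an entry without the element. Binding of ATF4 was not measured, and a match describes the letters of the window only.

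Aars and Nars completed the 3 members of highest level with Gars. Nars, the cytosolic asparagine enzyme, had 73.2, 71.5 and 73.2 FPKM in the controls and 80.5, 81.8 and 76.2 FPKM with metformin. The groups did not overlap, but the difference was small, 0.13 on the log2 scale (adjusted p = 0.295). Aars, the alanine enzyme, had 31.5, 35.4 and 39.3 FPKM in the controls and 38.8, 41.0 and 39.2 FPKM with metformin, and here the third control lay within the metformin range. Kars, the lysine enzyme of both compartments, had 17.9, 27.9 and 26.5 FPKM in the controls and 30.6, 30.7 and 28.9 FPKM with metformin, and its log2 fold change of 0.33 was not called (adjusted p = 0.204). Its first control was again low, and without it the log2 fold change was 0.14. The remaining cytosolic enzymes had log2 fold changes from -0.23 for Sars to 0.24 for Lars. The serine enzyme gene Sars (28.5, 34.5 and 38.4 FPKM against 27.5, 29.1 and 29.1 FPKM) and the glutamine enzyme gene Qars (-0.01) were the 2 cytosolic members with a negative value. The 10 members of the multi-tRNA synthetase complex in the list had a median log2 fold change of 0.14, with Iars called, and the 12 cytosolic enzymes outside it had a median of 0.17, with Cars, Tarsl2 and Vars called. The scaffold genes Aimp1 and Aimp2 had log2 fold changes of -0.18 and 0.13 and were not called, and Aimp2 overlaps Eif2ak1, with a mean of 12.8 FPKM, over 1548 bases on the opposite strand.

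The mitochondrial enzymes were expressed at lower levels, with means per gene from 1.47 to 9.60 FPKM (median 3.14) against 2.10 to 76.1 FPKM (median 21.1) for the cytosolic ones. Hars2, the mitochondrial histidine enzyme, had 8.18, 6.84 and 7.61 FPKM in the controls and 4.58, 4.58 and 5.48 FPKM with metformin. It fell by 0.54 on the log2 scale (standard error 0.10, adjusted p = 0.0114), to 0.647 times the control mean. Hars, its cytosolic counterpart, lies on the opposite strand of chromosome 18, where Hars2 spans 36783008 to 36792562, and the genes overlap over 198 bases. It had 24.3, 24.2 and 22.9 FPKM in the controls and 27.4, 29.4 and 26.3 FPKM with metformin, a difference of 0.21 on the log2 scale (adjusted p = 0.12). So these 2 adjoining genes had fold changes of opposite sign, and in each of them the groups did not overlap. Whether counting used strand is not given in the sources used here.

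Tars2, the mitochondrial threonine enzyme (chromosome 3, 95739976 to 95760206, minus strand), had 3.91, 4.91 and 5.22 FPKM in the controls and 2.78, 2.92 and 3.20 FPKM with metformin. It fell by 0.51 on the log2 scale (standard error 0.11, adjusted p = 0.0200), and no metformin sample reached the lowest control. Nars2 and Ears2, of the mitochondrial asparagine and glutamate enzymes, had log2 fold changes of -0.30 (adjusted p = 0.0978) and -0.22 (adjusted p = 0.127) and were not called, although their groups did not overlap. Iars2 was the exception among the mitochondrial enzymes, with 7.89, 7.10 and 7.51 FPKM in the controls and 8.55, 8.26 and 7.97 FPKM with metformin, all above the controls, and a log2 fold change of 0.12 (adjusted p = 0.304). It overlaps Rab3gap2, with a mean of 4.82 FPKM, over 2034 bases on the opposite strand. The other 3 with a positive value were Vars2 (0.10), Cars2 (0.03) and Mars2 (0.0044), of which Cars2 turned negative with the GC correction and Mars2 with scaling by total reads. Vars2 had 4.72, 5.22 and 6.36 FPKM in the controls and 6.09, 5.77 and 5.71 FPKM with metformin, and Cars2 had 2.60, 3.08 and 2.63 FPKM against 2.81, 2.92 and 2.83 FPKM, so that in both genes the metformin samples lay inside the range of the controls.

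For 14 amino acids a cytosolic gene was paired with the mitochondrial gene of the same name ending in 2. The ratio of their FPKM was taken within each sample. Tarsl2, with a control mean of 1.32 FPKM against 4.68 FPKM for Tars2, was not paired, and neither were Eprs, Farsa and Farsb. In the controls the mean ratio ran from 2.001 for Rars to Rars2 to 40.0 for Nars to Nars2, so the cytosolic gene was the higher one in every pair. The log2 fold change of the cytosolic gene was larger than that of the mitochondrial gene in 13 of the 14 pairs, the serine pair being the exception. The ratio was higher in all metformin samples than in all controls in 8 pairs and lower in none, and the groups overlapped in the other 6. The share over other pairs of genes was not taken. For single genes, 23.6% of all tested genes lay entirely above and 20.5% entirely below, so the count is not read as a result about the pairs. These ratios were not counted again without control replicate 1. For histidine the ratio was 2.98, 3.54 and 3.01 in the controls and 5.98, 6.42 and 4.80 with metformin. For threonine (Tars to Tars2) it was 4.87, 3.48 and 3.33 in the controls and 7.29, 6.84 and 6.03 with metformin. In both pairs the mitochondrial gene was the one called. For asparagine the ratio was 33.7, 43.4 and 43.0 in the controls and 56.2, 62.4 and 65.0 with metformin, and neither gene was called. These ratios are a description, and no test of a difference between the 2 classes was made.

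**Figure D3:**
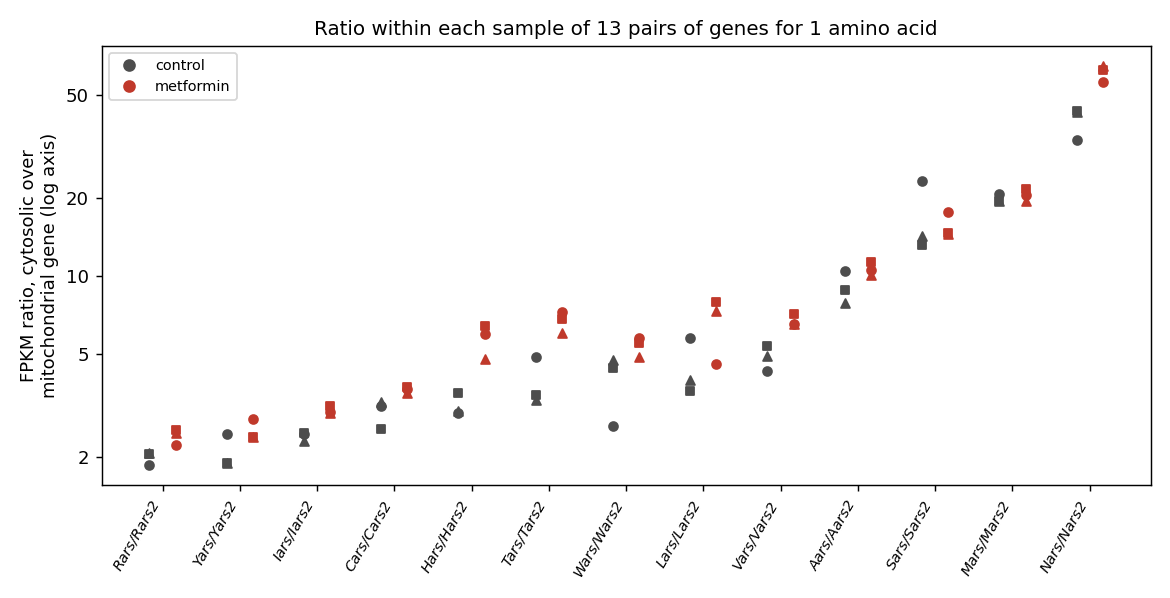
Ratio of the FPKM of the cytosolic to that of the mitochondrial gene (y axis, log scale) in each of 3 control and 3 metformin samples, for 13 of the 14 pairs, ordered by the control mean. The ratios run from 1.86 for Rars/Rars2 to 65.0 for Nars/Nars2, and the metformin points lie above all controls in 8 pairs and below all controls in none. The share over other pairs of genes was not taken.

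Prorsd1, which encodes a protein related to the editing domain of prolyl-tRNA synthetase, had 8.78, 7.06 and 5.21 FPKM in the controls and 4.81, 4.23 and 3.43 FPKM with metformin. The groups did not overlap and the log2 fold change was -0.62, but with a standard error of 0.19 it was just short of the threshold (adjusted p = 0.0549). It passed without control replicate 1 (-0.47, adjusted p = 0.0481) and without control replicate 3 (-0.79, adjusted p = 0.0224), but not when any other sample was left out (adjusted p up to 0.177). Among the other alternatives it passed with the GC correction (0.0155), the replicate block (0.0227), scaling by total reads (0.0392), voom (0.0489) and a minimum of 10 reads in every sample (0.0475), and not with a pseudocount of 0.1 (0.0545) or with no filter on low values (0.125).

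Without control replicate 1, 11 members were called higher and 5 lower, beside 23.4% and 20.4% of all tested genes. All 7 calls made with 6 samples were kept, and the 9 added were Dars, Eprs, Farsb, Hars, Lars and Tars, which were higher, and Sars, Sars2 and Prorsd1, which were lower. The median log2 fold change was then 0.19 for the cytosolic and -0.20 for the mitochondrial enzymes. With each library corrected for GC content, 5 members were higher and 7 lower, beside 16.3% and 19.2% of all tested genes, with class medians of 0.12 and -0.17. The call of Tarsl2 was kept whichever sample was left out, with adjusted p-values up to 0.0245. Iars and Hars2 were no longer called without metformin replicate 1 or without metformin replicate 2 (adjusted p = 0.0635 to 0.0717). Cars, Gars, Vars and Tars2 were no longer called without control replicate 2 or without any 1 of the 3 metformin samples (adjusted p = 0.0584 to 0.156), while the log2 fold changes kept their sign in each of these fits.

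**Figure D4:**
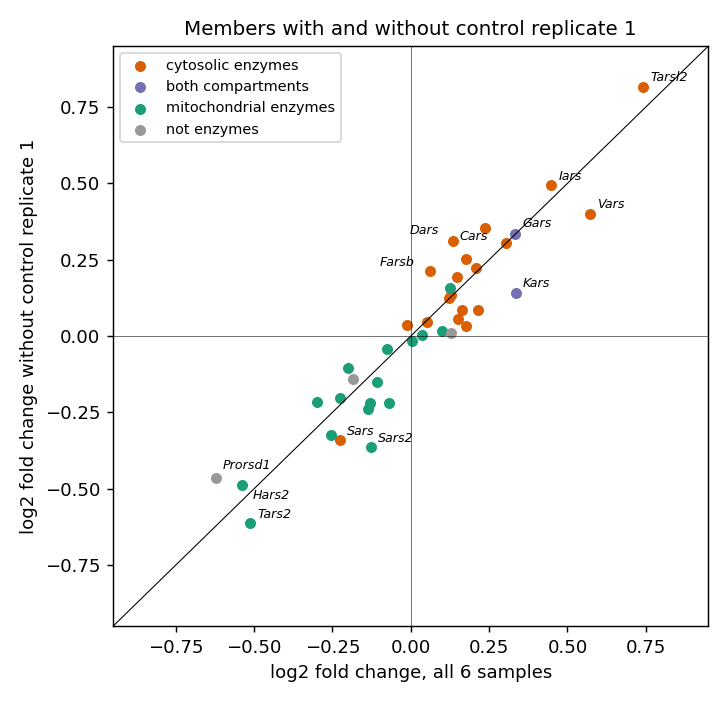
Log2 fold change of 40 of the 41 tested members with all 6 samples (x axis) and without control replicate 1 (y axis), coloured by class, with the line of equal values. Dars and Farsb lie above the line and Vars, Kars and Sars2 below it, and the medians move from 0.16 to 0.19 for cytosolic and from -0.13 to -0.20 for mitochondrial enzymes.

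Of 20 other genes of tRNA charging, all were tested, 2 were higher, 1 was lower and 17 were not called, beside the background of 13.2% and 9.28%. Eef1a1, the elongation factor that brings charged tRNA to the cytosolic ribosome, had 1636, 1758 and 1580.4 FPKM in the controls and 2175, 2263 and 2190.2 FPKM with metformin, a rise from 1658 ± 91.1 to 2209 ± 47.2 FPKM (SD, n = 3 each) and a log2 fold change of 0.42 (adjusted p = 0.0265). Eef1e1, the third scaffold protein of the multi-tRNA synthetase complex, had 4.46, 4.04 and 4.51 FPKM in the controls and 5.97, 5.81 and 5.71 FPKM with metformin (0.36 on the log2 scale, adjusted p = 0.0195). Pstk, a kinase on the way to selenocysteyl-tRNA, had 2.94, 2.58 and 2.18 FPKM in the controls and 1.87, 1.72 and 1.68 FPKM with metformin, and fell by 0.37 on the log2 scale (adjusted p = 0.0495). Without metformin replicate 1, 2 or 3 none of these 3 was called (adjusted p = 0.0800 to 0.162), nor were Eef1e1 and Pstk without control replicate 2 (adjusted p = 0.0592 and 0.118). Of the mitochondrial members of the list, the elongation factors Tufm (0.08) and Tsfm (0.32) and the subunits of the enzyme that makes mitochondrial glutaminyl-tRNA, Qrsl1 (0.13), Gatb (0.19) and Gatc (0.11), had positive log2 fold changes, and Mtfmt, which formylates the initiator methionyl-tRNA, had a negative one (-0.25, adjusted p = 0.0763, with all metformin samples below the controls). None of these 6 was called with all samples. Without control replicate 1, Tufm was at -0.08, Gatb was called higher (0.33, limma-trend adjusted p = 0.0184) and Mtfmt lower (-0.27, adjusted p = 0.0288). Of the rest of the list, Xpot (0.26, adjusted p = 0.0134) and Eef1b2 (0.28, adjusted p = 0.0292) were then also called higher. In that fit 23.4% of all tested genes were called higher and 20.4% lower.

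Of 18 genes of the amino acid response and ATF4, 17 were tested, 4 were higher and 1 was lower, with a median log2 fold change of 0.24, beside 13.2% and 9.28% of all tested genes called higher and lower. Slc7a11, a cystine transporter, was under the limit of 0.5 FPKM and was not tested, and its mean was 3.37 times as high with metformin, with the groups apart. Asns, which makes asparagine, had 64.6, 62.2 and 61.6 FPKM in the controls and 87.7, 85.1 and 85.1 FPKM with metformin (log2 fold change 0.45, adjusted p = 0.00813). Psat1, of serine synthesis, had 31.4, 29.1 and 25.8 FPKM in the controls and 57.1, 58.8 and 57.1 FPKM with metformin (log2 fold change 0.98, adjusted p = 0.000779). Slc7a5, a transporter of large neutral amino acids, had 22.1, 21.4 and 22.3 FPKM in the controls and 50.3, 51.9 and 47.1 FPKM with metformin (1.15, adjusted p = 0.000217). In these 3 genes each group kept to a narrow range. Chac1, which degrades glutathione, had 5.19, 10.9 and 10.7 FPKM in the controls and 27.6, 29.0 and 25.8 FPKM with metformin (1.58, adjusted p = 0.00600). Ddit3, a stress-induced transcription factor, was lower, with 23.8, 35.7 and 46.6 FPKM in the controls and 14.2, 14.5 and 15.9 FPKM with metformin (-1.15, adjusted p = 0.0129). Its controls differed widely, and it overlaps the member Mars over 68 bases on the opposite strand. Atf4 itself had 68.7, 141 and 142 FPKM in the controls and 144, 149 and 149 FPKM with metformin, so the first control was far below the rest and the log2 fold change of 0.40 was not called (adjusted p = 0.345). The kinase gene Eif2ak4, whose product senses uncharged tRNA, had a log2 fold change of 0.04. Without metformin replicate 1, 2 or 3 Asns was no longer called (adjusted p = 0.0521 to 0.0620), and Ddit3 was no longer called without control replicate 2, metformin replicate 1 or metformin replicate 2 (adjusted p = 0.0514 to 0.0574).

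**Figure D5:**
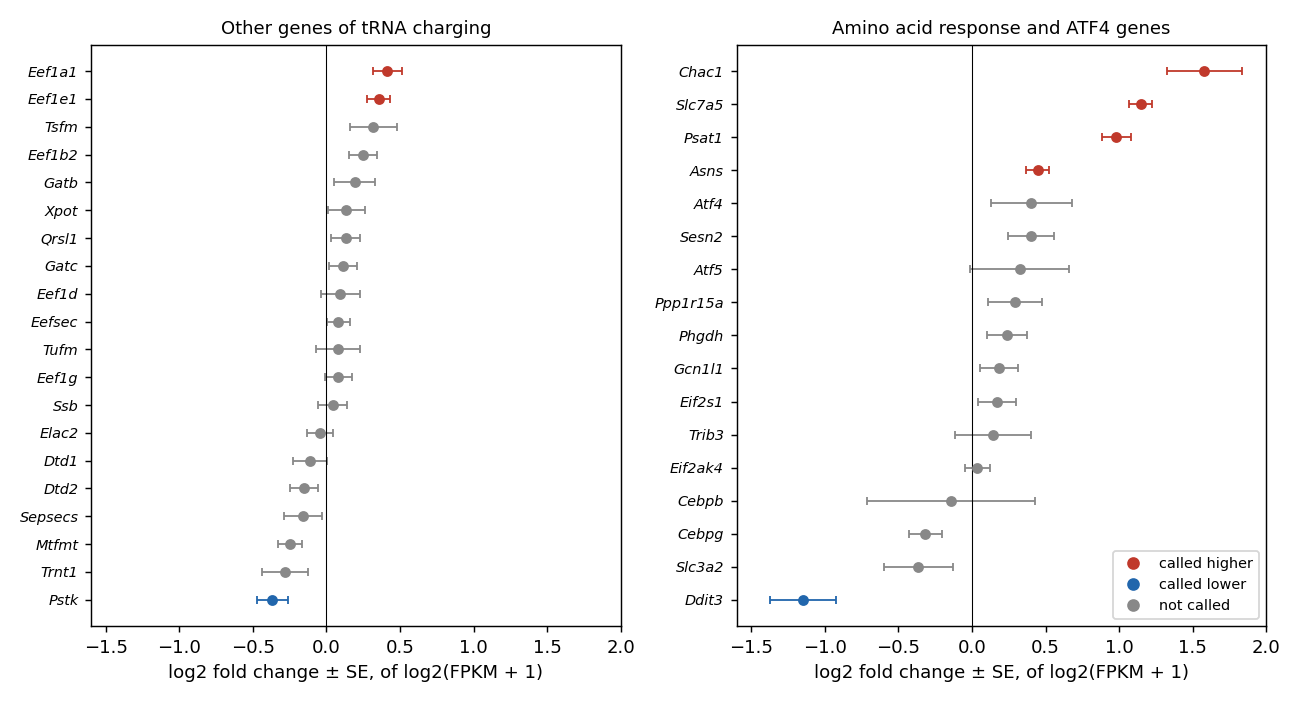
Log2 fold change (x axis, of log2(FPKM + 1)) with its standard error for 20 other genes of tRNA charging (left) and the 17 tested genes of the amino acid response and ATF4 (right), coloured by call. Eef1a1 and Eef1e1 are called higher and Pstk lower on the left, and Chac1, Slc7a5, Psat1 and Asns are called higher and Ddit3 lower on the right.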

How the data were processed

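RNA of 6 samples, 3 per group by the sample labels, was sequenced, and the authors deposited 1 table of normalized expression with gene lengths and coordinates but no named unit. Multiplied by gene length, 100% of the values above 0 fell on whole steps of a sample (tolerance 0.01 reads), so the deposited values were read as FPKM scaled by the authors to an effective library size. How the length was defined, the counter and the annotation are not given in the sources used here. The submitters' processing notes name the aligner Bowtie 0.12.2 and older mouse builds, but the coordinates of 39 of the 42 members are those of GENCODE M21 (GRCm38), so the role of that entry is unclear. Per-sample columns left unmapped numbered 0. The labels do not say that replicates are separate cultures, so p-values measure the spread between these samples. Recovered reads were 18399861 to 22111790 per sample, of which 3 reads, taken as a floor for counting error only, are at most 1.63e-05%.

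Groups were compared with limma 3.58.1 (trend = TRUE, R 4.3.3) on log2(FPKM + 1) for the 12681 genes that averaged 0.5 FPKM or more, two-sided, with Benjamini-Hochberg adjustment over all of them and a threshold of 0.05. The members and lists were chosen with earlier results of these data known, and the promoter element after the values were seen. Values in every sample are given for called members, for the counterparts of called enzymes and for the 3 members of highest mean, and of the other lists for genes called and Atf4. Other genes named with values were chosen after these were seen, and 1 member, counted in its class, is not reported by name here. Transcripts were compared with BLAST+ 2.17.0 at 95% identity over at least 200 bases. Aars shares 1326 bases with Exosc6, which had no read, and the overlaps of Iars, Iars2 and Aimp2 stand beside their values. GC content came from the longest GENCODE M21 transcript (99.9% of tested genes), and the GC correction subtracted a spline with 5 degrees of freedom from the deviations of each library. The fit was tested on simulated data. Figures were drawn with matplotlib 3.10.9.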

Additional observations from a re-analysis of the deposited data

How the results depend on the processing

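In total 14 alternatives were run on the 41 tested members. None of the 7 called members changed sign under any of them. With a pseudocount of 0.1 and with voom on the recovered reads all 7 calls were kept. The counts of members called higher and lower, 5 and 2 with all 6 samples, became 5 and 7 after the GC correction, 4 and 1 when low values were not filtered, and 8 and 8 when the GC correction was made without control replicate 1, which was chosen after seeing the data. Across the 6 fits that each left out 1 sample they ranged from 1 to 11 higher (11 without control replicate 1, 5 without control replicate 3, 2 without control replicate 2 or metformin replicate 3, and 1 without metformin replicate 1 or 2) and from 0 to 5 lower (limma-trend). The counts over all tested genes, 1670 higher and 1177 lower, were 2433 lower after the GC correction, 2701 and 3108 after it without control replicate 1, and ranged from 938 to 2969 higher and from 495 to 2590 lower across the fits that left out 1 sample.

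With the replicate block, 1 member was higher and 3 were lower, and 1161 of all tested genes were higher and 698 lower. Deviations of same-numbered samples from their group means had correlations of -0.053, 0.00027 and -0.055 over all tested genes. These values cannot show whether such samples were prepared together, since the deviations of the controls that follow GC content enter them too. The labels give a shared number only. The median log2 fold change of the cytosolic enzymes, 0.16, was 0.12 after the GC correction, 0.12 after it without control replicate 1, and 0.14 with scaling by total reads, and ranged from 0.14 to 0.19 when 1 sample was left out. That of the mitochondrial enzymes, -0.13, was -0.17 after the GC correction, -0.23 after it without control replicate 1, and -0.16 with voom, and ranged from -0.20 to -0.083 when 1 sample was left out. The GC correction moved the median of all tested genes from 0.0053 to -0.0392.

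Of the members given by name, 7 had a log2 fold change that changed sign, none of them called with all 6 samples. With the GC correction Farsb was -0.0118 and Cars2 -0.0371, and with scaling by total reads Mars2 was -0.0128. With the GC correction and without control replicate 1, Rars was -0.0721, Qars 0.000552, Farsa -0.0331, Cars2 -0.0915 and Mars2 -0.0887. When 1 sample was left out, Farsb ranged from -0.0136 to 0.21, Qars from -0.0494 to 0.0367, Aars2 from -0.22 to 0.0688 and Mars2 from -0.0166 to 0.024. Except where an alternative itself leaves out samples or genes, the cause was not tested. With 3 samples per group and standard errors of 0.08 to 0.21 on the log2 scale, the smallest fold change called among the members was 0.31.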

Other observations

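In Lars2, the mitochondrial leucine enzyme, the metformin samples differed widely. Its metformin samples had 5.83, 3.41 and 3.38 FPKM, and its controls 4.54, 5.61 and 5.13 FPKM, so that metformin replicate 1 was above every control and the other metformin samples were below every control. The log2 fold change was -0.26 (standard error 0.19, adjusted p = 0.375 by limma-trend). The cytosolic counterpart Lars had 26.8, 27.1 and 24.9 FPKM in the same metformin samples.

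Phenylalanyl-tRNA synthetase of the cytosol is built from products of Farsa and Farsb, and in control replicate 1 the genes of these subunits deviated in opposite directions. Farsa had 7.24, 9.97 and 10.3 FPKM in the controls and Farsb 25.0, 18.0 and 18.0 FPKM, so that control replicate 1 was the lowest control for Farsa and the highest for Farsb. With metformin, Farsa had 10.7, 10.5 and 10.03 FPKM and Farsb 20.2, 22.0 and 21.0 FPKM. The GC content of the longest transcript was 49.4% for Farsa and 46.3% for Farsb, and its part in these differences was not tested.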
